A study of Mus musculus with 15 samples.

Results

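Lung fibroblasts given β-aminopropionitrile (BAPN) were compared with lung fibroblasts given vehicle. The arrays were chosen by their titles, which name primary lung fibroblasts with BAPN or with vehicle at 24 h, and all probes that are not controls were used. This gave 7 of the 15 arrays of the series, 4 with vehicle and 3 with BAPN. The cells were primary mouse lung fibroblasts, grown through several passages and starved for a day before treatment, according to the labels. Vehicle was phosphate-buffered saline, and BAPN was used at 1 mM for 24 h. No group carried a genetic change according to the labels, and strain, sex and age of the mice are not used here. The arrays are called by their replicate numbers: vehicle 1, 2, 3 and 4, and BAPN 1, 2 and 4. BAPN replicate 3 of the fibroblasts is not analysed here, although 4 BAPN samples are mentioned in the study's design. Whether replicates came from separate cultures or animals is not given in the labels, so p-values reflect sample-to-sample spread that can be technical.

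Lysyl oxidases are secreted, copper-dependent amine oxidases. They oxidise lysine residues of collagen and elastin to aldehydes, which then form the cross-links that give lung matrix its strength. Fibroblasts are the main source of these enzymes and of their substrates, and BAPN binds irreversibly in the active site of the enzymes. The comparison asks whether blocking this activity changes the transcripts of the cells that make the matrix.

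All 5 lysyl oxidase genes were measured above background on every fibroblast array, and 0 of 5 passed the test. Over all features (a gene, or a probe without a gene name), 4453 of 32250 passed an adjusted p of 0.05, which is 13.8% (limma, Benjamini-Hochberg adjustment over all features; "called" below). Of the features tested, 640 rose with BAPN (1.98%) and 3813 fell (11.8%). With the replicate number as a block in the fit limma called 0 features, and whether the numbers pair the arrays is not settled here. The calls were unevenly placed on the array: 94.3% of them were for probes on the right side of it, from column 83 to the last (columns 1 to 82 are the left side), and 95.4% of the falls. Among expressed genes, here genes with a symbol and above background on all 7 arrays, 1421 of 15414 were called (9.22%).

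Where the arrays lay and where the spots lay moved with treatment, so these values stand before the genes. On both glass slides the vehicle arrays occupied positions 1 and 2, and the BAPN arrays position 3 or 4. Slide 1 held vehicle 1, vehicle 3 and BAPN 1. Slide 2 held vehicle 2, vehicle 4, BAPN 2 and BAPN 4. Array position and treatment cannot be told apart. Levels are log2 intensity minus the 75th percentile of the array, so 0 is that percentile. Each spot's deviation from the mean of the 7 fibroblast arrays was summarised by side, in 4 classes of brightness. In the second-dimmest class, the median deviation on the right side minus that on the left was 0.75 in vehicle 2 and 0.87 in vehicle 4. It was −0.85 in BAPN 2 and −0.80 in BAPN 4. On slide 1 it was 0.07 in vehicle 1, 0.04 in vehicle 3 and 0.03 in BAPN 1. The brightest class ran the other way on slide 2, with −0.16 and −0.11 in the vehicle arrays and 0.19 and 0.14 in the BAPN arrays. All 4 arrays of slide 2 had this left-to-right difference, with opposite signs in the treatment groups, and the 3 arrays of slide 1 were within 0.07 of no difference in that class.

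**Figure D1:**
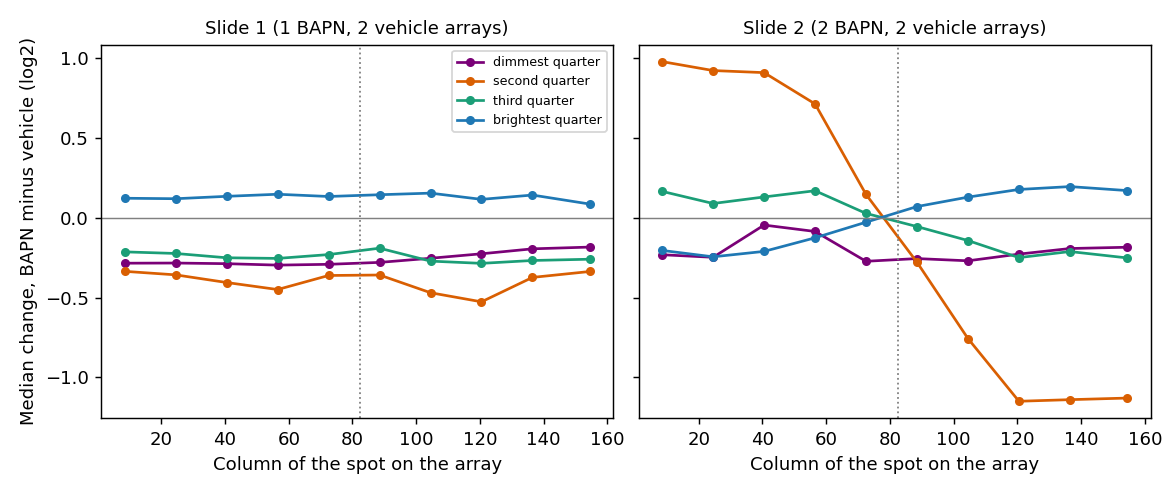
Median change with BAPN (log2, BAPN mean minus vehicle mean) of the spots in 10 strips of array columns, for 4 classes of brightness, on slide 1 (left) and slide 2 (right); the dotted line parts columns 82 and 83. On slide 2 the second-dimmest class runs from 0.98 in the first strip to −1.13 in the last, while on slide 1 it stays between −0.34 and −0.53.

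The array design holds 397 probes that were each spotted 10 times and lie on both sides, so the same transcript was measured on the left and on the right of the same array. Over all 397 the changes of the 2 sides had a Pearson r of −0.21 across probes, and over the 267 above background on all 7 arrays 0.15 (descriptions). Among the 171 of the 397 with a mean level above 0, the change on one side tracked that on the other (r = 0.96). Their medians differed: −0.02 on the left and 0.18 on the right. Among the 173 with a level below −2, the median change was 0.13 on the left and −0.35 on the right. Lep, which encodes the fat-cell hormone leptin, changed by 0.72 at its 2 left spots and by −1.79 at its 8 right spots. For Lep the left-side levels were −2.0, −3.14, −1.44 and −3.52 in vehicle 1 to 4 and −2.86, −1.60 and −0.95 in BAPN 1, 2 and 4. Its right-side levels on the same arrays were −1.71, −1.09, −1.09 and −1.37, and −2.50, −3.67 and −3.14. The groups overlapped on the left and did not overlap on the right. The odorant receptor gene Olfr713 changed by 0.50 at its 5 left spots and by −1.55 at its 5 right spots, and the neurotrophin receptor gene Ngfr by 0.32 and −1.09. These 3 genes were picked as examples after their values were seen.

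**Figure D2:**
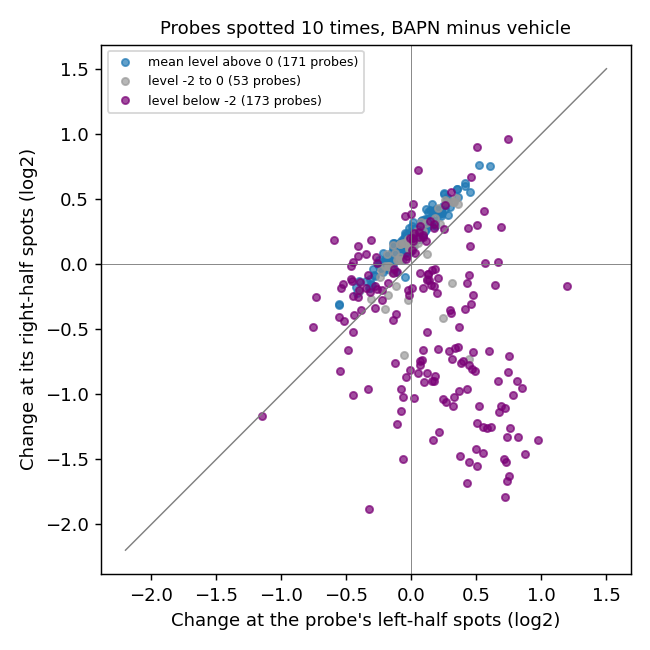
Change with BAPN (log2) of 397 probes spotted 10 times, at their left-side spots (horizontal axis) and right-side spots (vertical axis), coloured by mean level, with the line of equal change. The 171 probes with a level above 0 lie in a band parallel to that line (r = 0.96), with medians of −0.02 and 0.18, and the 173 below −2 scatter downwards.

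Probes for spiked-in control RNAs also differed between sides. Of 10 such probes with 35 spots each, 5 had a level above 0, and their change with BAPN was 0.07 to 0.20 on the left and 0.28 to 0.43 on the right. The right was above the left for 5 of 5. Over 2462 genes with 1 probe or more above background on each side, the changes of the sides were nearly unrelated (r = 0.05 across genes). Of the called expressed genes measured on the right side, 172 also had a left-side probe above background on all 7 arrays. For 105 of these that rose, the median change was 0.48 on the right and 0.06 at the left-side probes. For 67 that fell, it was −0.87 on the right and 0.06 on the left. The right-side probe stood for each gene as its brightest and was chosen by its call, and the left-side probes were not chosen so. The part of that choice in the smaller left-side changes was not tested.

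The share of called features was 25.9% on the right side and 1.59% in the left. Adjusted over the left side alone, limma called 0 of 16068 features there, with 1616 at an unadjusted p under 0.05 (10.1%). Adjusted over the right side alone, it called 5475 of 16182. The 95% interval of the change lay within 2-fold for 85.4% of expressed genes on the left side and for 78.9% in the right.

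The base composition of the probe moved with the calls as well. Of right-side features above background on all 7 arrays, 10% with at most 21 G or C bases in their 60-base probe rose and 4.1% fell. With 31 or more G or C bases, 0.58% rose and 36% fell. In the left side these shares were 0.85% and 0.45%, and 0.04% and 2.19%. Among spots above background on all 7 arrays, the deviation of probes with at most 21 G or C bases minus that of probes with 30 or more was compared between arrays. In the left side it was 0.43 in BAPN 1 and between −0.16 and 0.05 in the other 6 arrays. In the right side it was 0.38, 0.32 and 0.21 in BAPN 1, 2 and 4, and between −0.38 and −0.15 in the vehicle arrays. The groups did not overlap on the right side, and on the left side BAPN 1 stood alone. What these differences in place and base composition contribute to the calls of single genes was tested only by correcting for them. After a correction for column strip, brightness and probe base composition, 857 of 32250 features were called (2.66%), 245 higher and 612 lower. Of these, 43 lay on the left side and 814 in the right. This correction and the split by sides were chosen after the data had been seen.

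**Figure D3:**
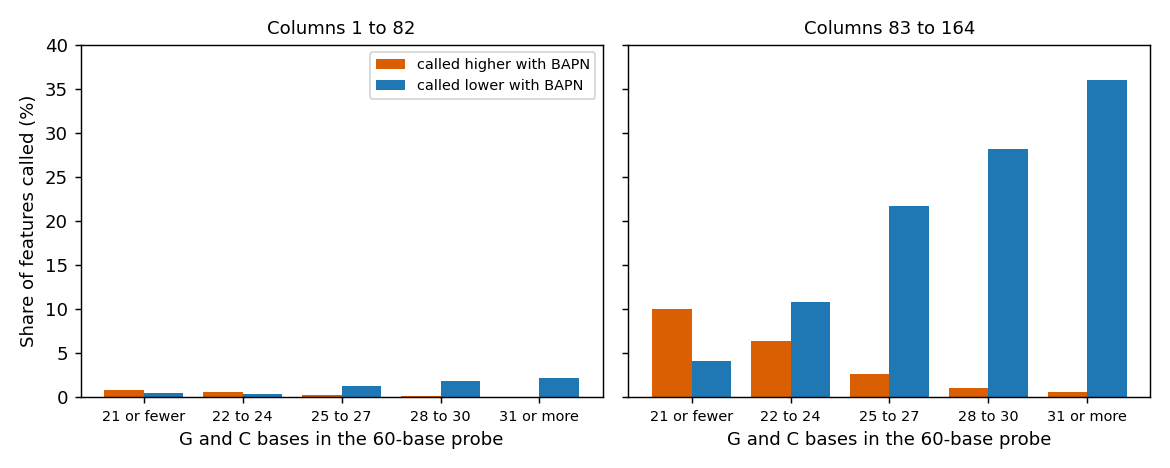
Share of features called higher (orange) or lower (blue) with BAPN (limma, adjusted p under 0.05), by the number of G and C bases in the probe, for features above background on all 7 fibroblast arrays. Bars start at 0; in columns from 83 on falls go from 4.1% to 36% and rises from 10% to 0.58%, while no bar of columns 1 to 82 exceeds 2.19%.

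Long intergenic non-coding RNA probes made up 9768 of the 32250 features tested. Of these, 1888 were called (19.3%, against 13.8% of all features and 25.9% of those on the right side), 60 higher and 1828 lower. The part of array side and brightness in this share was not tested. The probes below are the 3 rises and the 3 falls of smallest p among those above background on all 7 arrays, on chromosomes whose sequence is printed here. They are shown because their levels did not overlap between groups and because their base composition can be read off: capitals mark G and C. Positions are on mouse build mm9 as the array design gives them. The rises come first.
A_30_P01020264, chr17:95257849-95257908: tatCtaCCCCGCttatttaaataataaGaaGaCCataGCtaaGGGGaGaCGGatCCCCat
A_30_P01031343, chr17:3258806-3258865: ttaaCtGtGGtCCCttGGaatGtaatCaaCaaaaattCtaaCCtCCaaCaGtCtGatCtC
A_30_P01019594, chr8:119092655-119092714: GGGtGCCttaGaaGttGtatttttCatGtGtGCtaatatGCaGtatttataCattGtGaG
A_30_P01018494, chr6:57612813-57612872: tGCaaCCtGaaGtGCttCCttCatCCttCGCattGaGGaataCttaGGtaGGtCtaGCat
A_30_P01028166, chr11:31647549-31647608: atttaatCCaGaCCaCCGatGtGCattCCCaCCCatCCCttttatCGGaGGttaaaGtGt
A_30_P01026097, chr6:121035367-121035426: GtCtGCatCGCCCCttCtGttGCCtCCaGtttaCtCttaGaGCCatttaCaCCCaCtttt

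The 3 rising probes held 25, 23 and 21 G or C bases and the 3 falling probes 27, 27 and 29, and all 6 lay on the right side. A_30_P01020264 rose by 0.76 ± 0.16 on the log2 scale (SE; limma adjusted p = 0.0105), A_30_P01031343 by 0.49 ± 0.11 (adjusted p = 0.0128) and A_30_P01019594 by 0.61 ± 0.14 (adjusted p = 0.0146). The changes of the falling probes were −1.14 ± 0.14, −1.31 ± 0.16 and −1.10 ± 0.14, each with an adjusted p of 0.00547. After the correction for strip, brightness and base composition the changes of the 3 rising probes were 0.56, 0.34 and 0.42, and limma called 0 of 3. A_30_P01028166 and A_30_P01026097 stayed called, at −0.57 and −1.02 (adjusted p = 0.0163 and 0.0121), and A_30_P01018494 did not (−0.19, adjusted p = 0.613).

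Named genes were the 15 largest rises and 15 largest falls among 1069 expressed genes that were called with and without a correction for spot position, did not overlap between groups and changed the same way on both slides. Of the 1069, 1021 lay on the right side, and 217 were still called after the correction for strip, brightness and base composition, 6 of them on the left side. The rises included Rad51c, a recombination repair gene (1.43 ± 0.36, SE, adjusted p = 0.0204), Suv39h2, a histone methyltransferase gene (1.30 ± 0.37, adjusted p = 0.0323), Ubtf, a transcription factor gene of ribosomal RNA synthesis (1.06 ± 0.28, adjusted p = 0.0257), and Mcam, a cell adhesion gene of pericytes and endothelium (0.98 ± 0.29, adjusted p = 0.0389). Rad51c had levels of 3.62, 3.07, 3.53 and 3.04 in vehicle 1 to 4 and 5.97, 3.93 and 4.34 in BAPN 1, 2 and 4. Every BAPN array was above every vehicle array, and BAPN 1 stood well above the other two. Suv39h2 had the same shape, with 2.41 to 2.88 in the vehicle arrays against 5.25 in BAPN 1, 3.13 in BAPN 2 and 3.39 in BAPN 4. The same held for Ubtf, with 4.88 to 5.13 against 7.01, 5.41 and 5.71, and for Ogfod1, an oxygenase gene, with 3.40 to 3.92 against 6.03, 4.00 and 4.42. Without BAPN 1 the median change of the 15 fell from 1.19 to 0.64 and 9 of 15 were called. Fewer than 10 were also called without vehicle 2 (4), without vehicle 4 (3) and without BAPN 4 (7).

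Pigr, Gcm1, Dcc and Rhox8 had more even BAPN arrays. Pigr, which encodes the receptor that carries antibodies across epithelia, had levels of 3.34 to 4.34 in the vehicle arrays and 4.89, 4.60 and 4.98 in BAPN 1, 2 and 4 (1.00 ± 0.23, adjusted p = 0.0140). Gcm1, a transcription factor gene of the placenta, rose by 1.29 ± 0.35 (adjusted p = 0.0269), Dcc, a netrin receptor gene, by 1.20 ± 0.33 (adjusted p = 0.0317), and Rhox8, a homeobox gene of reproductive tissue, by 1.27 ± 0.37 (adjusted p = 0.0388). Gm14124 rose by 0.97 ± 0.21 (adjusted p = 0.0111) and was the 1 named rise still called after the correction for strip, brightness and base composition (1.03, adjusted p = 0.0212). The mean over all probes of Gm14124 changed by −0.02, so its probes disagreed. With the mean of all probes of a gene, the median of the 15 rises was 0.65 with 7 called, and that of the 15 falls −1.16 with 10 called. Atp6v1g3, a proton pump subunit gene, was the 1 named rise measured on the left side (1.31 ± 0.35, adjusted p = 0.0278), with −3.36, −4.57, −3.49 and −3.97 in vehicle 1 to 4 and −2.06, −2.70 and −2.86 in BAPN 1, 2 and 4. Ccdc138, Skint7, Dennd4a and Spag7 changed by 1.03 to 1.20, with BAPN 1 the highest array in each, as for Rad51c.

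The 15 named falls all lay on the right side, ranged from −2.46 to −1.90, and were larger on slide 2 than on slide 1 in 15 of 15. Several are known from tissues other than lung: Crygf encodes a lens crystallin (−2.21 ± 0.54, adjusted p = 0.0189), Olfr1222 an odorant receptor (−1.97 ± 0.31, adjusted p = 0.00556), and Rtp1 a protein that brings odorant receptors to the cell surface (−1.90 ± 0.32, adjusted p = 0.00622). Cldn4, which encodes a tight junction protein of epithelia, fell by 2.16 ± 0.40 (adjusted p = 0.00731). Its levels were −2.26, −1.42, −1.56 and −0.66 in vehicle 1 to 4 and −3.28, −4.22 and −3.43 in BAPN 1, 2 and 4. Amer3, a gene of Wnt signalling, fell by 2.06 ± 0.33 (adjusted p = 0.00551), from −0.80, −0.57, −0.53 and 0.24 to −1.92, −3.06 and −2.45. Lrrc2, at a higher level, fell by 1.99 ± 0.41 (adjusted p = 0.00979), from 1.51, 1.61, 1.74 and 2.11 to 0.63, −1.09 and −0.29. For Cldn4, Amer3 and Lrrc2 the BAPN array of slide 1 lay nearer to the vehicle arrays than 1 or both BAPN arrays of slide 2. The largest fall was that of Nkain2, which encodes a partner of the sodium pump (−2.46 ± 0.51, adjusted p = 0.0107). Esyt3 (−2.13 ± 0.33, adjusted p = 0.00547) encodes a protein that tethers the endoplasmic reticulum to the plasma membrane, and Nkx1-1 (−1.98 ± 0.36, adjusted p = 0.00737) a homeobox factor. The other named falls were AU015791, E330014E10Rik, Gm10389, Gml2, Gm2447 and Gm10510, at −2.40 to −1.93. After the correction for strip, brightness and base composition 10 of the 15 falls stayed called, with a median of −1.77. Without BAPN 2, 9 of 15 were called.

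Genes near the detection limit gave some of the largest folds. Among genes above background on at most 4 arrays, the 5 largest falls lay on the right side and the 5 largest rises on the left side. The genes given a bound below were above background only in the group where they were higher. They passed the filter of at least 3 of 7 arrays through that group, so their adjusted p-values are not support for a change. Pnliprp1, a pancreatic lipase relative, was above background on 3 vehicle arrays and on 0 BAPN arrays, with −5.16, −4.38, −4.94 and −4.18 in vehicle 1 to 4 and −7.53, −7.71 and −7.34 in BAPN 1, 2 and 4. The bound on its fall with BAPN was 1.89-fold, set by the lowest signal above background on each BAPN array. The vehicle mean in this bound includes 1 array not above background, taken at its measured level. The same holds for Fam170a and 4921513I03Rik, so for these genes the bound is not a strict lower limit. The fitted change of Pnliprp1 was −2.86 ± 0.25 (adjusted p = 5.49e-04). After the correction for strip, brightness and base composition it was called at −1.67 (adjusted p = 0.00872), with the same filter, so that call is not support either. Exph5 was at least 4.03-fold lower (adjusted p = 0.0130). For Fam170a the bound was 3.42-fold (adjusted p = 0.0221). At −1.37 vehicle 2 stood far above the other vehicle arrays (−5.03 to −3.88), and without it the bound was 1.95-fold. For 4921513I03Rik the bound was 2.90-fold (adjusted p = 0.0272). It was 1.52-fold without vehicle 1, which was at −1.25 against −5.67 to −4.48 in the other vehicle arrays. Ahsg, which encodes the liver protein fetuin-A, was at least 2.77-fold lower (adjusted p = 0.0135), and at least 1.67-fold without vehicle 1 (−1.93 against −5.22 to −4.60). Without BAPN 2, 1 of these 5 falls was called. Of the rises, the odorant receptor gene Olfr76 had a bound of at least 2.12-fold (adjusted p = 0.0454), or 1.43-fold without BAPN 1. For the odorant receptor gene Olfr1294 the bound was 1.72-fold (adjusted p = 0.0368), and it rested on BAPN 1, at −2.93 against −5.41 and −5.13 in BAPN 2 and 4, since no bound above 1 was left without that array. Tmem132e was at least 1.06-fold higher (adjusted p = 0.0491), with no bound above 1 without vehicle 2. Adora3, an adenosine receptor gene, was above background on 1 of 4 vehicle and 3 of 3 BAPN arrays, and F730016J06Rik on 1 of 4 and 2 of 3 (adjusted p = 0.0289 and 0.0374). No fold is given for these 2 genes, since most of their vehicle arrays were not well above background. Without vehicle 4 or BAPN 4, 0 of the 5 rises were called. Of these 5 rises limma called 0 after the correction for strip, brightness and base composition.

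In the left side, where 103 of 7730 expressed genes were called, 10 kept their call after that correction, changed the same way on both slides and had groups that did not overlap. They were singled out after their values were seen. Fkbp5, which encodes a co-chaperone of steroid receptors, had levels of 1.75, 1.93, 1.77 and 1.68 in vehicle 1 to 4 and 2.66, 2.22 and 2.18 in BAPN 1, 2 and 4. It rose by 0.57 ± 0.13 (adjusted p = 0.0129). Hcfc1, a chromatin cofactor gene of cell proliferation, rose by 0.59 ± 0.15 (adjusted p = 0.0209), from 2.40, 2.47, 2.46 and 2.13 to 3.37, 2.79 and 2.72. Ppip5k2, an inositol pyrophosphate kinase gene, rose by 0.60 ± 0.17 (adjusted p = 0.0348). In all 3 rises BAPN 1 was the highest array. Cyb5r3, which encodes a reductase of cytochrome b5, was at a high level, with 5.01, 5.25, 5.11 and 5.36 in vehicle 1 to 4 and 4.74, 4.86 and 4.86 in BAPN 1, 2 and 4, and fell by 0.37 ± 0.10 (adjusted p = 0.0298). Mon2, a gene of endosome-to-Golgi traffic, fell by 0.71 ± 0.15 (adjusted p = 0.0116) and Calcoco1, an autophagy receptor gene, by 0.41 ± 0.11 (adjusted p = 0.0274). Cdhr2, a protocadherin gene, fell by 0.84 ± 0.19 (adjusted p = 0.0140), from 2.44, 2.68, 2.59 and 2.42 to 1.88, 1.37 and 1.83. The other falls were Krt73 (−0.60), 6820431F20Rik (−0.49) and Sgsm3 (−0.56). Adjusted over the left side alone, 0 of the 10 were called, and without BAPN 2 limma called 3 of the 10. With the spot position correction it called 2 of the rises and 4 of the falls. With the fibroblast arrays alone it called 0 of the rises and 2 of the falls.

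Bright probes spotted 10 times allowed a change to be read on each side. Ccl2, which encodes a chemokine that draws monocytes, changed by 0.42 at 4 left spots and 0.62 at 6 right spots. Its left-side levels were 4.83, 4.82, 4.74 and 4.63 in vehicle 1 to 4 and 5.71, 4.98 and 4.81 in BAPN 1, 2 and 4. The right-side levels were 4.89, 4.75, 4.82 and 4.61, and 5.82, 5.29 and 5.05. The groups did not overlap on the right, while on the left BAPN 4 lay among the vehicle arrays, and Ccl2 was not called over all spots (0.54 ± 0.19, limma adjusted p = 0.0813 in the fit of each probe by itself). Cenpq, a centromere protein gene, was called in that fit (0.72 ± 0.17, adjusted p = 0.0173). Its change was 0.60 on the left and 0.75 on the right, from left-side levels of 0.44, 0.55, 0.06 and −0.06 to 1.12, 0.80 and 0.64. Tug1, a nuclear long non-coding RNA, changed by 0.52 on the left and 0.76 on the right and was not called (0.61 ± 0.22, adjusted p = 0.0912). Its probe is shown because the same 60 bases were read in both sides, with G and C in capitals.
Tug1, chr11:3540471-3540530: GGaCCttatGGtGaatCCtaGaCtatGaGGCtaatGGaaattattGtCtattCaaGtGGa

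The lysyl oxidase genes, targets of BAPN as proteins, are given in every array. Lox, the founding member, had levels of 4.46, 4.17, 4.52 and 4.54 in vehicle 1 to 4 and 4.83, 4.12 and 4.36 in BAPN 1, 2 and 4. BAPN 1 was the highest and BAPN 2 the lowest of all 7, and the groups overlapped. The change was 0.02 ± 0.16 (SE, adjusted p = 0.965), with a 95% interval of −0.33 to 0.36, or 0.796-fold to 1.29-fold. Loxl1, which acts on elastin, had levels of 5.50, 5.99, 5.55 and 6.08, and 5.34, 5.54 and 5.55. Its change was −0.31 ± 0.16 (adjusted p = 0.231), with an interval of −0.64 to 0.03. With the slide as a block Loxl1 was called, at −0.36 (adjusted p = 0.0443), the 1 setting in which any family member passed. Loxl1 was measured on the left side.

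Loxl2, which also cross-links basement membrane collagen, had levels of 5.91, 4.30, 5.78 and 5.89 in vehicle 1 to 4 and 5.84, 4.32 and 5.63 in BAPN 1, 2 and 4. The arrays numbered 2 were low in both groups, by about as much. The change was −0.21 ± 0.40 (adjusted p = 0.789), with the widest interval of the family, −1.08 to 0.66. Loxl3 had levels of 2.01, 2.21, 2.45 and 2.36, and 2.54, 2.49 and 2.36, a change of 0.20 ± 0.12 (adjusted p = 0.302; interval −0.05 to 0.46). Loxl4 had levels of 0.24, 0.50, 0.39 and 0.41, and −0.05, 0.44 and 0.22, a change of −0.18 ± 0.22 (adjusted p = 0.646; interval −0.65 to 0.29). The groups overlapped for all 5 genes. Changes of over 2-fold up or down lay outside the 95% intervals of Lox, Loxl1, Loxl3 and Loxl4. For Loxl2 (0.474-fold to 1.58-fold) this held for a rise of over 2-fold but not for a fall.

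The array carried 10 usable probes for the 5 genes, and limma called 0 of 10 when each probe was tested by itself. The 3 Loxl2 probes lay at chr14:70090017-70090076, chr14:70092141-70092200 and chr14:70095254-70095313 (mm9), and changed by −0.53, −0.44 and −0.21. The arrays numbered 2 were the lowest at all 3, so the low level did not rest on 1 probe. For Loxl1 the probe at chr9:58138570-58138629 changed by −0.31 and that at chr9:58145451-58145510 by −0.13. The Loxl4 probes, at chr19:42668733-42668792 and chr19:42667320-42667379, changed by −0.18 and 0.05, and the 2 Lox probes by 0.02 and −0.20. The single Loxl3 probe lay at chr6:83001888-83001947. The files do not give exon or UTR annotation for these positions.

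**Figure D4:**
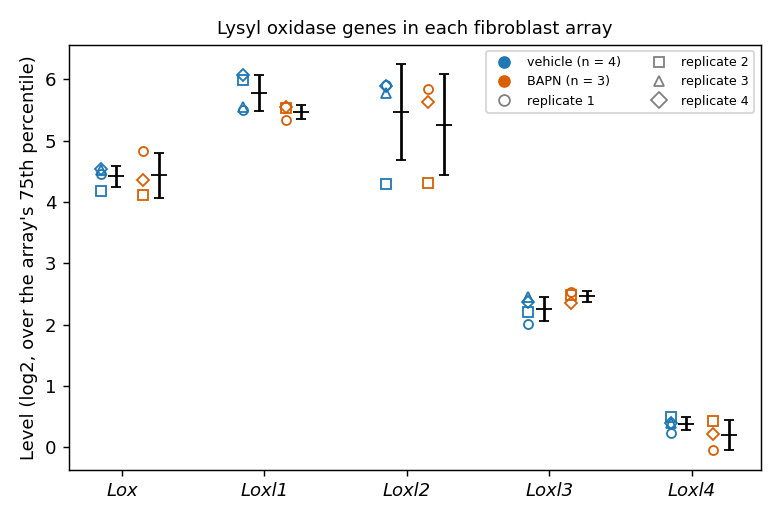
Levels of the 5 lysyl oxidase genes (log2, 0 is the array's 75th percentile) in 4 vehicle arrays (blue) and 3 BAPN arrays (orange), with the mean and SD of each group in black; marker shapes give the replicate number. The groups overlap for each gene, and the squares of replicate 2 lie near 4.30 for Loxl2 in both groups while the other arrays lie at 5.63 or higher.

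Of 13 measured genes that activate lysyl oxidases, supply them with copper or dock them on matrix, 0 were called, and their median change was 0.01. Atp7a, the copper pump that loads secreted enzymes, changed by 0.24 ± 0.11 (adjusted p = 0.187), and Slc31a1, the copper importer, by 0.26 ± 0.18 (adjusted p = 0.380). Bmp1, the protease that cleaves the lysyl oxidase proenzyme, changed by −0.06 ± 0.16 and Fn1, which encodes fibronectin, by −0.05 ± 0.16 (adjusted p = 0.860 and 0.883). Of 14 genes of copper handling, 3 were called, all on the right side, where 17.2% of expressed genes were called: the copper transporter gene Slc31a2 rose (0.48 ± 0.13, adjusted p = 0.0265), and Cox17, a copper chaperone of mitochondria (−1.15 ± 0.29, adjusted p = 0.0203), and Atp7b, a copper pump (−1.22 ± 0.30, adjusted p = 0.0205), fell. Without vehicle 2, vehicle 4 or BAPN 2, 0 of the 14 were called, without BAPN 4 only 1 was, and after the correction for strip, brightness and base composition 0 were called.

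The substrates and their processing enzymes were mostly near the median of all features tested, 0.00. Of 18 collagen chain genes 1 was called, Col15a1, which encodes a basement membrane collagen (−1.17 ± 0.30, adjusted p = 0.0232). Its probe lay on the right side and held 35 G or C bases, and its corrected change was −0.23 (adjusted p = 0.744). The list's median was 0.04, with −0.08 for the 8 genes read on the left side and 0.22 for the 10 read in the right. Col1a1, a chain of the main fibrillar collagen, had levels of 7.56, 7.37, 7.68 and 7.76 in vehicle 1 to 4 and 7.78, 7.21 and 7.72 in BAPN 1, 2 and 4 (−0.02 ± 0.17, adjusted p = 0.954). Of 17 elastic fibre genes 0 were called, with a median of 0.06. Of 21 genes of collagen hydroxylation and folding 1 was called, Plod3, a lysyl hydroxylase gene whose product prepares collagen lysines (−0.56 ± 0.17, adjusted p = 0.0459). Plod3 was read on the left side, with 4.86, 4.77, 4.80 and 5.56 in vehicle 1 to 4 and 4.44, 4.29 and 4.58 in BAPN 1, 2 and 4. The groups did not overlap, and vehicle 4 was far above the rest. Without vehicle 4, 0 of the 21 genes were called. After the correction for strip, brightness and base composition Plod3 was not called (−0.32, adjusted p = 0.142), whereas P3h2, a prolyl hydroxylase gene, was (1.28, adjusted p = 0.0431; 0.53 ± 0.24 without it, adjusted p = 0.182). Matrix proteases and proteoglycans gave 0 calls among 19 and 19 genes, with medians of 0.11 and 0.04.

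Of 25 genes of protein folding in the endoplasmic reticulum, 2 passed the test, both higher. Of 15414 expressed genes, 480 were called higher and 941 lower, 9.22% together. Of the 25, 21 had a change above 0 (84%, against 56.3% of all expressed genes), and the median was 0.20, against 0.04 for all expressed genes. The median was 0.14 for the 13 genes read on the left side and 0.21 for the 12 read in the right, and 0.12 after the correction for strip, brightness and base composition, with 17 of 25 above 0. The bright spike-in probes, which report no gene of the cells, changed by 0.07 to 0.20 on the left and 0.28 to 0.43 on the right. Both called genes were read on the right side. Selenok, which encodes a selenoprotein of the reticulum membrane, rose by 0.50 ± 0.12 (adjusted p = 0.0160), from 4.91, 4.80, 4.97 and 4.82 in vehicle 1 to 4 to 5.43, 5.53 and 5.17 in BAPN 1, 2 and 4. Pdia4, a disulphide isomerase gene, rose by 0.54 ± 0.13 (adjusted p = 0.0199), from 2.26, 1.76, 2.26 and 2.22 to 2.78, 2.60 and 2.60. Neither was called after the correction, at 0.15 and 0.34 (adjusted p = 0.450 and 0.147). In the left side, Hsp90b1, the chaperone GRP94, had levels of 6.72, 6.69, 6.80 and 6.77 against 7.38, 6.84 and 6.96 (0.31 ± 0.13, adjusted p = 0.138). Hspa5, the chaperone BiP, had 6.40, 6.42, 6.50 and 6.53 against 7.19, 6.47 and 6.57 (0.28 ± 0.16, adjusted p = 0.281). For both chaperones BAPN 1 was the highest array, and for Hspa5 BAPN 2 lay among the vehicle arrays. Called genes of the list numbered 0 without BAPN 2, and 1 without BAPN 1 or BAPN 4. The list was drawn up with earlier results of these data known.

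Many of these genes carry a known control element in their promoters, the endoplasmic reticulum stress element, spelled CCAAT, 9 bases of any kind, then CCACG. It was searched on both strands in windows of 300 bases spanning the start of the gene, from RefSeq, build GRCm38.p6, with 1 window a gene. Of the list, 22 genes had a window and 10 of these held the element (45.5%), against 35 of 27025 over all genes (0.13%). The CCACG part by itself, which lies within the element, was in 90.9% and 32.7% of windows. Hspa5 holds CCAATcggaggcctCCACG, from 65 bases before its start, and Pdia6 holds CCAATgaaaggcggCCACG, from 98 bases before it, with the fixed letters of the element in capitals. The 10 genes with the element had a median change of 0.16 with 0 called, and the 12 without it 0.205 with 2 called. A match is a description of letters, not a measured site. The element was already known from genes of this kind, so its larger share in the list is not a result of these arrays.

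Of 24 genes of mitosis, limma called 0, with a smallest adjusted p of 0.0951. Their median change was 0.19, with 22 of 24 above 0. On slide 1 the median was 0.37, and on slide 2 it was 0.09 with 15 of 24 above 0. The median was 0.14 on the left side (13 genes), 0.28 in the right (11 genes) and 0.15 after the correction for strip, brightness and base composition. Mad2l1, a spindle checkpoint gene read on the left side, had 2.66, 2.35, 2.27 and 2.48 in vehicle 1 to 4 and 2.72, 2.73 and 2.88 in BAPN 1, 2 and 4 (0.34 ± 0.13, adjusted p = 0.0951). Mki67, a marker of cycling cells, had 4.13, 4.06, 3.81 and 4.51 against 4.58, 4.41 and 4.62 (0.41 ± 0.18, adjusted p = 0.154). Of 26 genes of DNA replication and repair, 22 had a change above 0 and Rad51c was called, with a median of 0.22 (0.09 left, 0.28 right, and 0.11 corrected). Without vehicle 2, 0 of the 26 were called. The vehicle arrays themselves differed in these genes: without vehicle 3 the median of the mitosis genes was 0.10 with 17 of 24 above 0, and without vehicle 4 it was 0.34.

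Most other lists gave few or no calls, and their medians differed between sides. Of 21 proteasome subunit genes 3 rose, Psmd14, Psma1 and Psma3, all on the right side (0.53 ± 0.11, 0.32 ± 0.10 and 0.39 ± 0.12, adjusted p = 0.0117, 0.0431 and 0.0486). Of all expressed genes 480 of 15414 were called higher, and 447 of 7684 of those on the right side. Whether the share of the proteasome list differs from these was not tested. The median of that list was −0.02 on the left side and 0.23 in the right, and without BAPN 2, 0 of 21 were called. Among 17 genes of the TGF-beta response 2 were called, a share near the 9.22% of expressed genes. The receptor gene Tgfbr1 rose (0.36 ± 0.10, adjusted p = 0.0295) and Ski, a repressor of the pathway, fell (−0.62 ± 0.16, adjusted p = 0.0210). Both lay on the right side, where 17.2% of expressed genes were called. The sign of Ski turned under 1 alternative, given in the closing section. Among 15 YAP and TAZ target genes 2 were called, both higher, beside 480 called higher of 15414 expressed genes. Tead1, which encodes the DNA-binding partner of YAP, rose on the left side (0.56 ± 0.17, adjusted p = 0.0464), from 4.63, 4.65, 4.73 and 4.13 to 5.39, 4.996 and 4.90. Arhgef17 of the same list rose on the right side (0.38 ± 0.11, adjusted p = 0.0442). When any 1 array other than vehicle 3 was left out, 0 of these 15 were called. Hk2 was called higher among 19 genes of glycolysis and hypoxia (0.54 ± 0.15, adjusted p = 0.0320), where 5 of 19 changes were above 0. Egr3 was called lower among 17 immediate early genes (−1.79 ± 0.34, adjusted p = 0.00775). After the correction 0 genes of these 5 lists were called, while in the list of cholesterol synthesis Srebf1, its control factor gene, was (0.58, adjusted p = 0.0415; 0.11 without it, adjusted p = 0.592).

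In 10 lists limma called 0 members: interferon-stimulated genes (21 tested), chemokines and cytokines (16), heat shock (13), antioxidant (22), integrated stress response (23), integrin (17), p53 target (19), ribosomal protein (19), respiratory chain (19) and myofibroblast contractile genes (15). Their medians lay between −0.14 and 0.22.

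**Figure D5:**
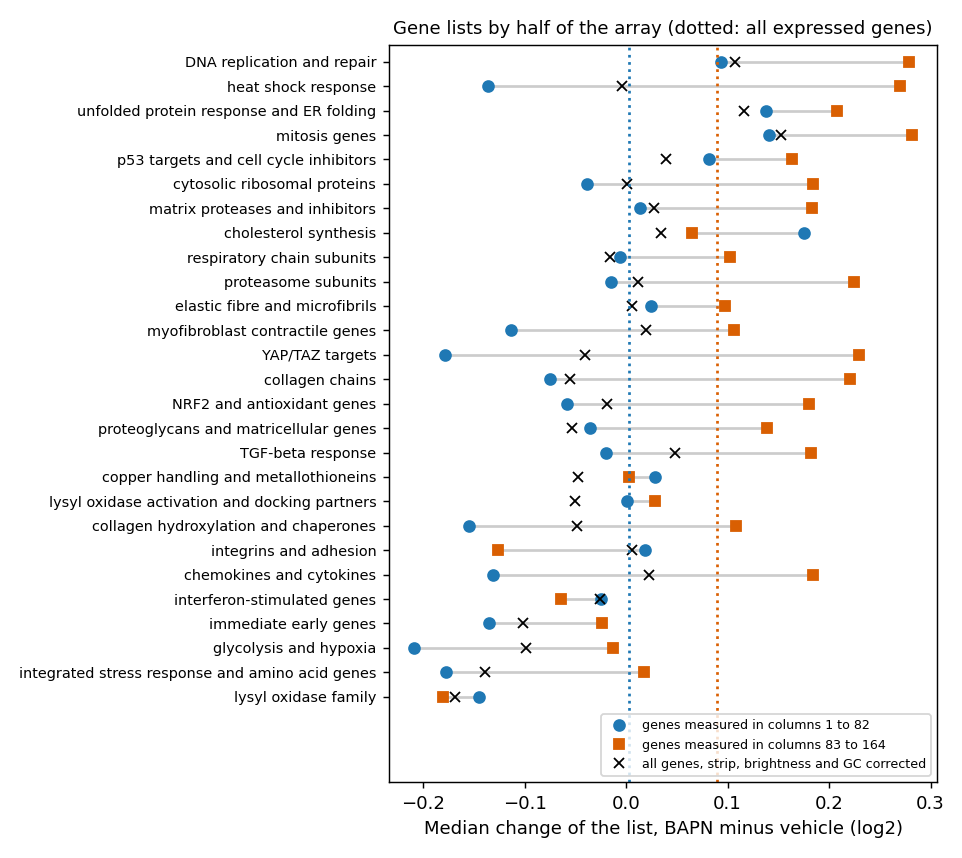
Median change with BAPN (log2) of each gene list other than cell type markers, for members read in columns 1 to 82 (blue circles) and in columns from 83 on (orange squares), and for all members after the correction for strip, brightness and probe base composition (crosses). Dotted lines give the medians of all expressed genes, 0.00 on the left and 0.09 on the right; the right-side median is the higher in most lists, and the folding and mitosis lists have left-side medians of 0.14.

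The cultures carried fibroblast transcripts and some of other cells. Of 23 fibroblast markers 21 were above background on all 7 arrays, and 0 of the 22 tested were called. Col1a2 was at 8.55 ± 0.27 with vehicle and 8.61 ± 0.32 with BAPN (SD, n = 4 and 3), and Thy1 at 7.20 ± 0.18 and 7.30 ± 0.10. The epithelial genes Cdh1 and Epcam were above background on 0 and 1 of 7 arrays. Of 22 epithelial markers, 10 were above background on all 7 arrays and 8 on none. Macrophage genes were present: Csf1r was at 3.41 ± 0.25 with vehicle and 3.28 ± 0.30 with BAPN, and Tyrobp at 1.95 ± 0.61 and 2.22 ± 0.82. The summed linear level of 23 leukocyte markers was 79.1 to 102 with vehicle and 86.6 to 101 with BAPN, against 1200 to 1530 and 1260 to 1570 for the fibroblast markers. In bulk RNA, fewer cells of a type and less RNA per cell cannot be told apart. Of 22 leukocyte markers tested 2 were called, a share below the 13.8% of all features: the T cell genes Cd3e and Cd8a, both on the right side. Ptprc, another marker of this list, was at −2.65 ± 0.59 with vehicle and −2.71 ± 0.60 with BAPN, far below the Cd3e levels given next. Whether the Cd3e and Cd8a probes report T cells was not tested. Cd3e had levels of 1.52, 1.66, 1.71 and 1.88 in vehicle 1 to 4 and 0.60, 0.92 and 0.99 in BAPN 1, 2 and 4 (−0.86 ± 0.14, adjusted p = 0.00559). Cd3e stayed called after the correction (−0.96, adjusted p = 0.0111), as did Cd8a (−2.53, adjusted p = 0.0304; −3.13 ± 0.60 without it, adjusted p = 0.00822). Cd8a was above background on 4 vehicle arrays and 1 BAPN array, and its change was −1.71 with the mean of all its probes. Another Cd8a probe, dim and spotted 10 times, changed by 0.55 at 6 left spots and by −1.45 at 4 right spots, a pattern like that of Lep.

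Mesothelial genes separated the replicates rather than the treatments. Wt1, a mesothelial transcription factor gene, had levels of 2.49, −4.42, 1.09 and 1.45 in vehicle 1 to 4 and 3.00, −4.04 and 1.62 in BAPN 1, 2 and 4. Msln, which encodes mesothelin, had 2.59, −1.61, 1.08 and 1.84, and 2.64, −1.70 and 1.12. The arrays numbered 2 were the lowest in both groups for both genes, as for Loxl2, and 0 of 9 mesothelial markers were called. The part of these cells in the Loxl2 level was not tested.

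Genes that mark tissues other than lung, used as a check on dim signals, moved most of all lists. Of 18 tested 8 fell and 0 rose, with a median of −0.98. Of all features 11.8% fell and 1.98% rose, and 25.9% of right-side features were called. Of the list, 9 genes were above background on all 7 arrays. In a fit limited to features so measured, 1 of these 9 fell, and their median was 0.02. Pnliprp1 and Ahsg were above background on 0 BAPN arrays and passed the filter only through vehicle arrays. The 8 genes read on the left side had a median of 0.15, with 7 above 0, and the 10 read on the right side a median of −2.26, with 0 above 0. Oaz3, a testis gene, fell by 2.65 ± 0.55 (adjusted p = 0.0107) and Ins1, an insulin gene, by 1.04 ± 0.25 (adjusted p = 0.0173). Without BAPN 2, 1 of the 18 was called, and after the correction for strip, brightness and base composition 2 were, Pnliprp1 and Oaz3.

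Alveolar type II (ATII) cells, the surfactant-making epithelial cells of the lung, received the same treatments on the same slides (4 vehicle and 4 BAPN arrays, 1 of the latter titled as a replacement). The layout differed: 3 of the 4 ATII BAPN arrays lay on slide 1, against 1 of 3 for fibroblasts. In the second-dimmest class, right minus left was −1.07 in the ATII BAPN array of slide 2, 0.62 and 0.64 in the ATII vehicle arrays of that slide, and within 0.08 of 0 on slide 1. The part of this layout in the counts of the cell types was not tested. In ATII cells limma called 0 of 32250 features (0%), with 3323 at an unadjusted p under 0.05 (10.3%). The test of the difference between the cell types (the BAPN change in ATII cells minus that in fibroblasts) called 1 feature, Pnliprp1, whose change was −0.03 ± 0.23 in ATII cells and −2.86 ± 0.25 in fibroblasts (difference 2.83, adjusted p = 0.0457). Pnliprp1 passed the filter only through 3 fibroblast vehicle arrays. Detection in ATII cells was not part of the filter, so the call is not support for a difference between the cell types. At an unadjusted p under 0.05 the difference passed for 4740 features (14.7%). For the lysyl oxidase genes the changes in ATII cells were −0.22 ± 0.15 for Lox, 0.02 ± 0.14 for Loxl1, 0.09 ± 0.37 for Loxl2, 0.00 ± 0.11 for Loxl3 and −0.04 ± 0.20 for Loxl4, and the difference from fibroblasts was not called for any of the 5 (adjusted p between 0.493 and 0.879). The median change in ATII cells was −0.11 for the folding genes and −0.12 for the mitosis genes, against 0.20 and 0.19 in fibroblasts. For Selenok and Pdia4 the difference between the cell types had adjusted p of 0.278 and 0.184.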

How the data were processed

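Scanner output was read as deposited: spot intensity from Agilent Feature Extraction 10.7.3.1, with background subtraction and spatial and multiplicative detrending per the file headers. The array holds 62976 spots, of which 59305 belong to 55681 probes that are not controls, and was designed on mm9. The authors' series table, used as an alternative, is on a log2 scale, with its normalization not given in the sources used here. Between 65.3% and 71.0% of spots were well above background on the fibroblast arrays, 0 were saturated, and the number of arrays limits the precision. Processed intensity was taken as log2 minus each array's 75th percentile. Outlier spots were left out, spots of a probe averaged, and the brightest probe stood for a gene. A feature was tested if above background on at least 3 of 7 arrays. All 15 arrays entered 1 linear model (limma 3.58.1, R 4.3.3) with 11 residual degrees of freedom (two-sided test), with Benjamini-Hochberg adjustment. Fits were tested on simulated data. Probes were named through a RefSeq table (GRCm38.p6): 27522 by accession, 3423 by symbol and 493 by older symbol, with 24243 unnamed.

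The spot position correction subtracted, per array, the median deviation from the cell type's mean in blocks of 8 columns and 24 rows. The correction for strip, brightness and base composition, chosen after seeing the data, subtracted lowess curves on level, then on G and C count, in strips of 8 columns. Named genes were the 15 largest rises and falls as defined in the text, 5 of each near background, all lysyl oxidase genes, the called or leading list members, and defining markers. Members and lists were chosen with earlier results of these data known. Other settings tried were background correction, normalization, filters, blocks, probe choice and left-out replicates. Long non-coding RNA probes on chromosome 18 are not shown.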

Additional observations from a re-analysis of the deposited data

Results flagged for a closer look

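Among 102 genes named or examined, 6 had a vehicle array far from the other 3, where chance gives about 1 in 20 groups. Gml2 was at −0.0814 in vehicle 1, against a median of 0.36 in the other arrays. Loxl2 was at 4.30 in vehicle 2, against 5.89, and Pdia4 at 1.76 in vehicle 2, against 2.26. Cyp51 was at −0.31 in vehicle 3, against −0.17. In vehicle 4, Plod3 was at 5.56, against 4.80, and Vcl at 4.11, against 4.61. The test of the difference between the cell types called Pnliprp1, at 2.83 (ATII cells minus fibroblasts, limma interaction term, adjusted p = 0.0457). Pnliprp1 was near the detection limit and passed the filter only through fibroblast vehicle arrays. With the slide as a block the difference was called for 0 features.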

How the results depend on the processing

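Of 4453 features called, 640 were higher and 3813 lower, with 1421 expressed genes called. Called features numbered 2944 with the fibroblast arrays alone, 435 on slide 1, 7172 on slide 2, 1897 with spot position corrected by brightness, 1605 with strips and brightness corrected and 857 with base composition too. Called higher were 384 with normexp, 406 with no filter on dim probes, 67 with the fibroblast arrays alone, 282 on slide 1, 2682 on slide 2, 2015 with spot position corrected (1966 with the slide as a block too), 245 after the full correction and 1003 in columns from 83 on alone. Called lower were 153 on slide 1, 1350 with position corrected by brightness, 1065 with strips and brightness corrected and 612 after the full correction. Expressed genes called numbered 735, 167, 2207, 711, 647 and 328 with the fibroblast arrays alone, slide 1, position corrected, position corrected by brightness, strips and brightness corrected, and the full correction. Called with and without the position correction were 3206 features, and 1382, 1172 and 667 under those last 3 corrections. In columns 1 to 82 alone limma called 0 features, with 1616 at an unadjusted p under 0.05. The strip corrections and the split by columns were chosen after seeing the data. The causes of these shifts were not tested.

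Leaving out 1 array gave 1443 (without BAPN 2) to 4326 called features, 189 to 540 higher, 1208 to 3976 lower, and 489 to 1252 expressed genes. The difference between cell types, called for 1 feature, was called for 2 with no filter, 96 on slide 1, 0 to 29 with 1 array left out, and 0 under 12 other settings, among them normexp, quantile normalization and the slide as a block. Ski turned to 0.0861 with position corrected by brightness and Gm14124 to −0.0202 with the mean of all probes.

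With the replicate number as a block (a replicate block), limma called 0 features, with 7754 at an unadjusted p under 0.05. Deviations of same-numbered arrays, which shared a slide, correlated at −0.079, 0.14 and −0.0465 for numbers 1, 2 and 4. Arrays of the same slide with different numbers correlated lower: −0.408 (vehicle 3, BAPN 1), −0.293 (vehicle 2, BAPN 4) and −0.295 (vehicle 4, BAPN 2). Across slides the values ran from −0.000586 to 0.312. The main fit did not pair the arrays by number, and whether the numbers pair them is not settled by these values. Single genes did follow the number: Wt1, Msln and Loxl2 were low in both arrays numbered 2. With the replicate block the change of Loxl2 was −0.105 (adjusted p = 0.698). Signal over background limits dim genes: the 95% interval lay within 2-fold for 60.7% of all features and 82.2% of expressed genes.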
